A study of Mus musculus with 104 samples.

Results

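The proteasome subunit genes are the genes whose symbol starts with Psma, Psmb, Psmc or Psmd followed by a number. The name rule found 40 genes of 22592 rows in the Kmt2b table and the same 40 of 22593 rows in the Tet1/2 table. By place in the particle they were 7 alpha ring genes, 4 non-catalytic and 3 catalytic beta ring genes, 5 tissue-restricted core genes, 6 base ATPases, 3 other base genes and 8 lid genes. Another 3 (Psmd5, Psmd9 and Psmd10) encode chaperones that assemble the base, and Psmc3ip, a meiotic recombination factor, matched by name only. RNA had been measured in mouse embryos without Tet1 and Tet2 (Tet1-/-;Tet2-/-, DKO), without Kmt2b (Kmt2b-/-, KO) and wild type (WT). TET1 and TET2 oxidize methylated cytosine, and KMT2B is a histone methyltransferase. The Tet1/2 table held 2 DKO and 2 WT libraries of the E8.5 head and 2 DKO and 3 WT libraries of the E6.5 epiblast, the pluripotent tissue that gives rise to the embryo. The Kmt2b table held 1 merged column for each of 5 groups, made from 3 KO and 3 WT E6.5 epiblasts, 2 KO and 3 WT E8.5 heads and 3 WT E9.5 heads, and the single E9.5 KO library. The series design names DBA2 males and C57BL/6N females as parents for the staged dissections, and heads were cut off near the neck per the labels' protocols. The genetic background of the mutants, and whether replicates were separate embryos or pools, are not given in the sources used here, so p-values measure the spread between these libraries.

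The proteasome degrades proteins tagged with ubiquitin. Its core particle is a barrel of outer alpha rings and inner beta rings, and of the beta subunits Psmb5, Psmb6 and Psmb7 carry the proteolytic sites. A regulatory particle caps the core: its base holds a ring of ATPases that unfold and thread substrates, and its lid holds the deubiquitinase Psmd14 that removes ubiquitin. Psmb8, Psmb9 and Psmb10 replace the catalytic subunits in the immunoproteasome, which immune cells and interferon-treated cells make, Psmb11 takes a catalytic place in the thymus, and Psma8 is an alpha subunit of male germ cells. Constitutive subunits are incorporated in fixed numbers, and their genes are known to be induced together by the factor Nfe2l1 when degradation is blocked.

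Several properties of the libraries bear on the results. In the Tet1/2 table the WT epiblast columns were mapped by name to the WT epiblasts of the Kmt2b set, so in every comparison with those libraries genotype or stage and sample set cannot be told apart. Xist, transcribed from the inactive X chromosome, had 0.0116 and 0.0126 FPKM in DKO heads and 7.80 and 9.05 FPKM in WT heads, and the Y-linked Ddx3y had 13.6 and 15.6 FPKM in DKO heads and 0.0290 and 0.0119 FPKM in WT heads, so sex and genotype cannot be told apart in the heads. In the epiblasts Ddx3y had 15.5 and 0.0746 FPKM in DKO and 21.6, 21.8 and 24.2 FPKM in WT. Sex and stage therefore cannot be told apart between WT heads and WT epiblasts. The 7 epiblast markers summed to 2627 and 2514 FPKM in DKO epiblasts and 1569, 1613 and 1562 FPKM in WT epiblasts. The 4 heads had 123 to 174 FPKM. The 8 head neural and anterior markers, which share Otx2 with that list, separated the tissues less. They summed to 159 and 208 FPKM in DKO heads and 224 and 225 FPKM in WT heads. In epiblasts they had 146 and 147 FPKM in DKO and 113, 115 and 128 FPKM in WT, with Sox1 at 0 in 4 of the 5 libraries. Tet1 had 1.28 and 1.29 FPKM in DKO heads and 2.55 and 3.33 FPKM in WT heads, and 3.82 and 2.92 FPKM in DKO epiblasts and 4.77, 6.29 and 5.02 FPKM in WT epiblasts. Tet2 was low in every library, at 0.251 and 0.383 FPKM in DKO heads and 0.430 and 0.488 FPKM in WT heads, and 0.180 and 0.266 FPKM in DKO epiblasts and 0.254, 0.302 and 0.498 FPKM in WT epiblasts. Which exons were deleted is not given in the sources used here. Kmt2b, listed as Wbp7, had 0.308 FPKM in KO and 0.701 FPKM in WT at E6.5, 0.133 FPKM in KO and 0.6003 FPKM in WT at E8.5, and 0.0349 FPKM in KO and 1.20 FPKM in WT at E9.5. Read numbers cannot be had from FPKM, and the depth behind each value is therefore unknown.

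The constitutive subunit genes spanned a wide range of levels. FPKM are per transcript length, so levels can be roughly compared between genes, though some values may hold reads of other loci, as given below. Averaged over the 9 libraries of the Tet1/2 table, the highest member was the alpha subunit gene Psma7 at 913 FPKM and the lowest of the alpha ring was Psma5 at 42.9 FPKM, 21.3 times less. Psma7 stood between rank 47 and rank 55 of all rows in every library. The non-catalytic beta genes ran up to 598 FPKM for Psmb2, with Psmb3 lowest at 147 FPKM. The 3 catalytic genes lay closer together, with 541 FPKM for Psmb6, which cleaves after acidic residues, 454 FPKM for Psmb7, which cleaves after basic residues, and 344 FPKM for Psmb5, which cleaves after hydrophobic residues.

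In the Tet1/2 table the regulatory particle was lower and more even than the core. Its ATPase genes averaged between 179 FPKM for Psmc2 and 367 FPKM for Psmc6. In the base, the ubiquitin receptor Psmd4 was highest at 209.7 FPKM and the scaffold Psmd1 lowest at 162 FPKM. The lid ran up to 281 FPKM for the deubiquitinase gene Psmd14, with the scaffold subunit gene Psmd13 lowest at 70.7 FPKM. Among the chaperones Psmd5 had 79.8 FPKM and Psmd9 had 22.7 FPKM. Within a library, the highest of the 17 regulatory genes was 2.68 to 8.72 times the lowest, and the highest of the 14 constitutive core genes was 13.99 to 28.4 times the lowest.

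The members with the highest and lowest mean of each subcomplex are given by library. Psma7 had 907 and 907 FPKM in DKO heads and 942 and 942 FPKM in WT heads, and 901 and 869 FPKM in DKO epiblasts and 942, 907 and 901 FPKM in WT epiblasts. Psmb2 had 589 and 590.4 FPKM in DKO heads and 525 and 600.5 FPKM in WT heads, and 546 and 583 FPKM in DKO epiblasts and 676, 608 and 660.2 FPKM in WT epiblasts. Psmb6 had 590.4 and 583 FPKM in DKO heads and 459.7 and 492 FPKM in WT heads, and 530.0 and 595 FPKM in DKO epiblasts and 569, 501 and 549 FPKM in WT epiblasts. Psma7 was above the other core genes in all 9 libraries, and the values of the 4 groups overlapped for Psmb6 except in WT heads, which were lowest. Psmb5 had 332 and 278 FPKM in DKO heads and 179 and 295 FPKM in WT heads, and 346 and 412 FPKM in DKO epiblasts and 408, 431 and 417 FPKM in WT epiblasts, and it varied more than Psmb6, with WT head library 1 lowest. The ATPase gene Psmc6 had 401 and 396 FPKM in DKO heads and 372 and 399 FPKM in WT heads, and 319 and 315 FPKM in DKO epiblasts and 405, 332 and 367 FPKM in WT epiblasts. Psmc2 had 186 and 183 FPKM in DKO heads and 211 and 191 FPKM in WT heads, and 159.9 and 171 FPKM in DKO epiblasts and 179, 157 and 177 FPKM in WT epiblasts. Psmc6 was above Psmc2 in all 9 libraries. Psmd1 had 145 and 151 FPKM in DKO heads and 142 and 166 FPKM in WT heads, and 169 and 190.0 FPKM in DKO epiblasts and 172, 155 and 168 FPKM in WT epiblasts. Psmd14 had 296 and 309.6 FPKM in DKO heads and 281 and 302 FPKM in WT heads, and 260.4 and 254 FPKM in DKO epiblasts and 296, 250.4 and 282 FPKM in WT epiblasts. DKO and WT overlapped within each tissue for both genes, while both DKO heads were below both DKO epiblasts for Psmd1 and above them for Psmd14. Psmd9 had 25.6 and 26.03 FPKM in DKO heads and 19.7 and 23.3 FPKM in WT heads, and 19.0 and 26.01 FPKM in DKO epiblasts and 21.0, 20.5 and 23.5 FPKM in WT epiblasts. None of these 9 genes was called in DKO against WT in either tissue.

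Summed over its 14 constitutive genes, the core had 6220.5 ± 30.8 FPKM in DKO heads and 5750.0 ± 329.6 FPKM in WT heads, and 5991 ± 299 FPKM in DKO epiblasts and 6617 ± 168 FPKM in WT epiblasts (SD, n = 2, 2, 2 and 3 libraries). The 17 ATPase, base and lid genes summed to 3573 ± 28.3 FPKM in DKO heads and 3781 ± 10.1 FPKM in WT heads, and to 3814 ± 129 FPKM in DKO epiblasts and 3454 ± 180.2 FPKM in WT epiblasts. In DKO epiblasts the core sum thus lay below and the regulatory sum above the WT epiblasts. The range of the core sum did not overlap, at 5779 and 6202 FPKM in DKO epiblasts against 6429 to 6752 FPKM in WT epiblasts, and neither did that of the regulatory sum, at 3723 and 3905 FPKM against 3247 to 3573 FPKM. The spread between replicates was small: the median SD of the 38 members kept in the fit was 0.0226 on the log2 scale in DKO heads, 0.0663 in WT heads, 0.0766 in DKO epiblasts and 0.102 in WT epiblasts, against 0.0873, 0.103, 0.176 and 0.167 over all genes kept. Over the 5051 kept genes with the highest means it was 0.0691, 0.0905, 0.127 and 0.121 in the same order. The sorted values of the 9 columns differed by at most 0.240%, as quantile normalization leaves them, so a value states a gene's rank within its library and 2 libraries can hold the identical value for a gene.

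**Figure D1:**
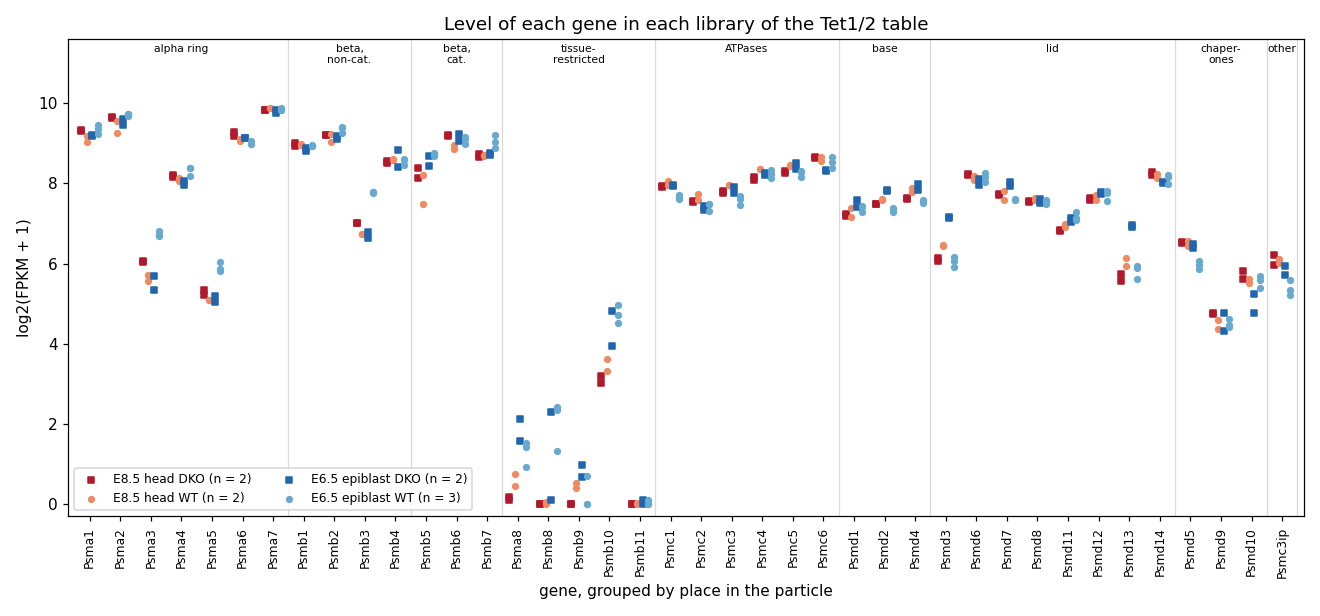
FPKM of the 40 genes as log2(FPKM + 1) on the y axis, with genes on the x axis grouped by place in the particle; each point is 1 library of the Tet1/2 table (2 DKO heads, 2 WT heads, 2 DKO epiblasts, 3 WT epiblasts). Psma7 is highest and Psma3, Psma5 and Psmb3 sit low within the core. The tissue-restricted genes sit lowest, except that Psmb10 reaches the level of Psmd9 in epiblasts. The DKO epiblasts stand above the other groups at Psmd3 and Psmd13.

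The tissue-restricted core genes were far below the subunits they replace, and Psmb10 (both genotypes), Psmb8 (WT) and Psma8 (DKO) were called higher in the epiblast than in the head. Psmb10, the counterpart of Psmb7, had 7.09 and 8.21 FPKM in DKO heads and 11.3 and 8.98 FPKM in WT heads, against 14.5 and 27.1 FPKM in DKO epiblasts and 22.1, 30.0 and 25.3 FPKM in WT epiblasts. Every head library was below every epiblast library. Psmb8, the counterpart of Psmb5, was listed at 0 in both DKO heads and had 0 and 0.0412 FPKM in WT heads, 0.0830 and 3.95 FPKM in DKO epiblasts and 1.52, 4.37 and 4.13 FPKM in WT epiblasts. The first DKO epiblast library was near 0 and the second was within the WT range. The log2 difference of WT heads from WT epiblasts was -1.26 ± 0.25 (SE), adjusted p = 0.00492 for Psmb10 and -2.01 ± 0.58 (SE), adjusted p = 0.0253 for Psmb8 in limma's fit. The Psmb8 call was lost without any 1 of WT epiblast libraries 2 and 3 and of the WT heads (adjusted p up to 0.126). Psmb10 was also called lower in DKO heads than in DKO epiblasts (-1.27 ± 0.27 (SE), adjusted p = 0.00528).

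Psma8, which in germ cells stands in for Psma7, had 0.0792 and 0.133 FPKM in DKO heads and 0.676 and 0.380 FPKM in WT heads, against 2.00 and 3.34 FPKM in DKO epiblasts and 1.88, 0.894 and 1.69 FPKM in WT epiblasts. In DKO its log2 difference between head and epiblast was -1.71 ± 0.26 (SE), adjusted p = 0.00121. Psmb9, the counterpart of Psmb6, reached at most 0.974 FPKM and the thymic Psmb11 at most 0.0771 FPKM in any library of this table, and neither entered the fit. The 7 immune and interferon markers summed to 71.3 and 64.9 FPKM in DKO heads and 49.7 and 33.0 FPKM in WT heads, against 31.8 and 36.5 FPKM in DKO epiblasts and 53.8, 51.6 and 60.0 FPKM in WT epiblasts. B2m, the light chain of the antigen-presenting class I molecule, made up most of the sum in the heads, with 69.0 and 62.4 FPKM in DKO heads and 47.4 and 30.9 FPKM in WT heads, against 13.7 and 3.61 FPKM in DKO epiblasts and 30.7, 23.4 and 32.9 FPKM in WT epiblasts. Among the others, Ptprc was at 0 in 8 of the 9 libraries and Cd74 reached at most 0.528 FPKM. Irf1, an interferon-responsive factor known to activate immunoproteasome genes in immune cells, had 1.31 and 1.21 FPKM in DKO heads and 1.17 and 1.46 FPKM in WT heads, against 17.2 and 31.7 FPKM in DKO epiblasts and 22.2, 26.8 and 25.8 FPKM in WT epiblasts. The part of Irf1 in the levels of Psmb8 and Psmb10 was not tested. In bulk tissue, fewer cells that express a gene and less RNA per cell cannot be told apart.

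**Figure D2:**
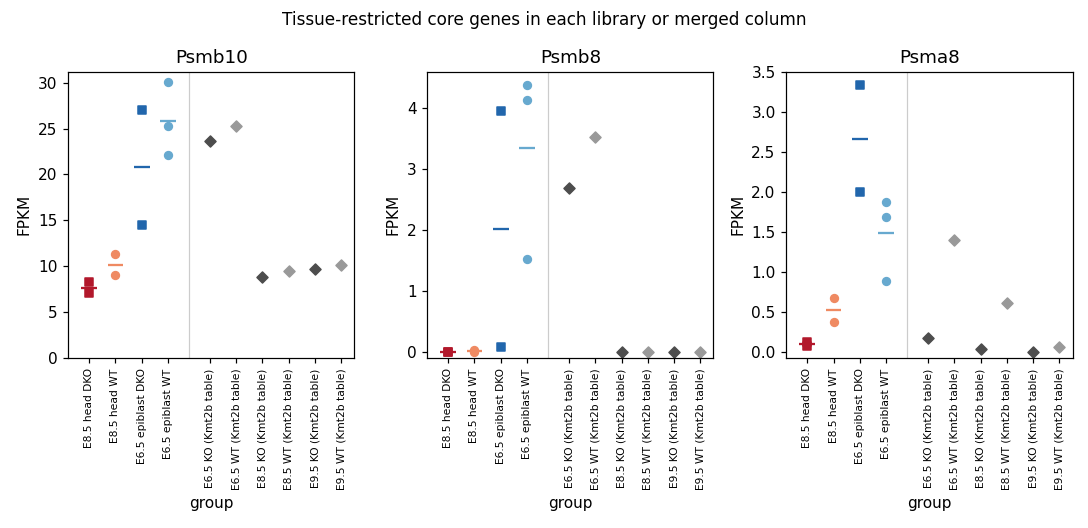
FPKM (y axis, linear) of Psmb10, Psmb8 and Psma8 by group (x axis); points left of the line are libraries of the Tet1/2 table with horizontal bars at the group means, and diamonds to the right are the columns of the Kmt2b table. Psmb10 lies at 7.09 to 11.3 FPKM in the 4 heads and 14.5 to 30.0 FPKM in the 5 epiblasts.

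The DKO against WT comparison in the E6.5 epiblast, which asks what loss of Tet1 and Tet2 changes before gastrulation, gave calls of opposite direction in the parts of the particle: those in the core were all lower and those in the regulatory particle all higher. Of 38 members kept in limma's fit, 15 passed an adjusted p of 0.05 (Benjamini-Hochberg, two-sided, over 11262 genes), against 35.3% of all genes, a share close to that of the members. The members' median log2 difference was -0.02 and that of all genes 0.05. Of the 14 constitutive core genes 5 fell and 0 rose, with a median of -0.17. Of the 17 ATPase, base and lid genes 7 rose and 0 fell, with a median of 0.12. Over all genes 20.1% were called higher and 15.2% lower. Since the WT libraries come from the Kmt2b set, loss of Tet1/2 and sample set cannot be told apart in these calls. The remaining calls were the chaperone genes Psmd5 (higher) and Psmd10 (lower) and Psmc3ip (higher).

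In the alpha ring, Psma3 had 39.9 and 50.4 FPKM in DKO epiblasts and 104, 112 and 102 FPKM in WT epiblasts. The highest DKO value was far below the lowest WT value, and the log2 difference was -1.22 ± 0.11 (SE), adjusted p = 0.000356. Psma5 had 31.7 and 35.8 FPKM in DKO epiblasts and 55.1, 57.5 and 64.4 FPKM in WT epiblasts, without overlap, a log2 difference of -0.79 ± 0.10 (SE), adjusted p = 0.00122. Psma4 differed less, with 246 and 266 FPKM in DKO epiblasts, 332, 289.6 and 332 FPKM in WT epiblasts and a log2 difference of -0.31 ± 0.08 (SE), adjusted p = 0.0212. The other 4 alpha genes were not called and ranged from -0.18 for Psma2 to 0.12 for Psma6, while the abundant Psma7 had 901 and 869 FPKM in DKO epiblasts and 942, 907 and 901 FPKM in WT epiblasts. In the beta ring, the structural subunit gene Psmb3 had 98.5 and 109 FPKM in DKO epiblasts and 214, 219.8 and 218 FPKM in WT epiblasts, and its log2 difference was -1.06 ± 0.07 (SE), adjusted p = 0.000117. Both DKO libraries were far below the WT range. Of the catalytic genes Psmb7 fell (-0.30 ± 0.09 (SE), adjusted p = 0.0319), Psmb5 differed by -0.15 and Psmb6 by 0.06.

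The lid genes Psmd13 and Psmd3, both scaffold subunits, rose most. Psmd13 had 123 and 119 FPKM in DKO epiblasts and 48.0, 57.9 and 60.5 FPKM in WT epiblasts, a log2 difference of 1.12 ± 0.12 (SE), adjusted p = 0.000599. Psmd3 had 139 and 142 FPKM in DKO epiblasts and 59.6, 70.2 and 65.9 FPKM in WT epiblasts, a log2 difference of 1.10 ± 0.09 (SE), adjusted p = 0.000216. For both genes the DKO libraries lay close together and well above every WT library. Psmd7, the lid partner of the deubiquitinase, had 245 and 260.4 FPKM in DKO epiblasts and 191, 191 and 195 FPKM in WT epiblasts (0.39 ± 0.08 (SE), adjusted p = 0.00703), and the other 5 lid genes ranged from -0.11 to 0.05. Psmd14 itself, the most abundant lid gene, differed by -0.10 and was not called.

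In the base, the scaffold gene Psmd2, a docking site for ubiquitin shuttle factors, had 224 and 227 FPKM in DKO epiblasts and 166, 154 and 164 FPKM in WT epiblasts, a log2 difference of 0.48 ± 0.06 (SE), adjusted p = 0.00128. The ubiquitin receptor Psmd4 had 226 and 252 FPKM in DKO epiblasts and 182, 189 and 191 FPKM in WT epiblasts (0.35 ± 0.07 (SE), adjusted p = 0.00762). Of the ATPases, Psmc1 rose by 0.27 and Psmc3 by 0.25 on the log2 scale, and the other 4 ranged from -0.21 to 0.19. Psmc3ip had 51.5 and 60.3 FPKM in DKO epiblasts and 46.8, 36.4 and 39.8 FPKM in WT epiblasts (0.44 ± 0.13 (SE), adjusted p = 0.0341). The chaperone gene Psmd5 had 82.6 and 88.9 FPKM in DKO epiblasts and 65.9, 61.9 and 57.6 FPKM in WT epiblasts (0.47 ± 0.09 (SE), adjusted p = 0.00556). Psmd10, which lies on the X chromosome, had 26.3 and 37.1 FPKM in DKO epiblasts and 50.7, 41.2 and 46.8 FPKM in WT epiblasts (-0.55 ± 0.15 (SE), adjusted p = 0.0258), with the DKO libraries differing from each other in Ddx3y as given above. The part of sex in this difference was not tested. The 7 epiblast markers, which were also higher in DKO epiblasts as given above, and the 5 extraembryonic ectoderm markers, which summed to 13.4 and 16.8 FPKM in DKO epiblasts and 27.1, 23.8 and 27.03 FPKM in WT epiblasts, moved with genotype too, and their part in the member differences was not tested.

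Of these 15 calls 8 (Psma3, Psma5, Psmb3, Psmd2, Psmd3, Psmd5, Psmd7 and Psmd13) held under all 13 alternative settings, and 7 were lost when some single library was left out. Without DKO epiblast library 2, the calls of Psmc1, Psmc3, Psmc3ip, Psmd4 and Psmb7 were lost, and without WT epiblast library 1 or 3 those of Psma4, Psmb7 and Psmd10. Psmc3 was also lost without WT library 1 or 2 and Psmc3ip without WT library 2 or 3, and without DKO library 1 Psma4, Psmb7 and Psmd10 were lost. The highest adjusted p of a lost call among these was 0.231 for Psmc3, 0.175 for Psmc3ip, 0.117 for Psmd10, 0.101 for Psmb7, 0.0893 for Psma4, 0.0564 for Psmd4 and 0.0525 for Psmc1.

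**Figure D3:**
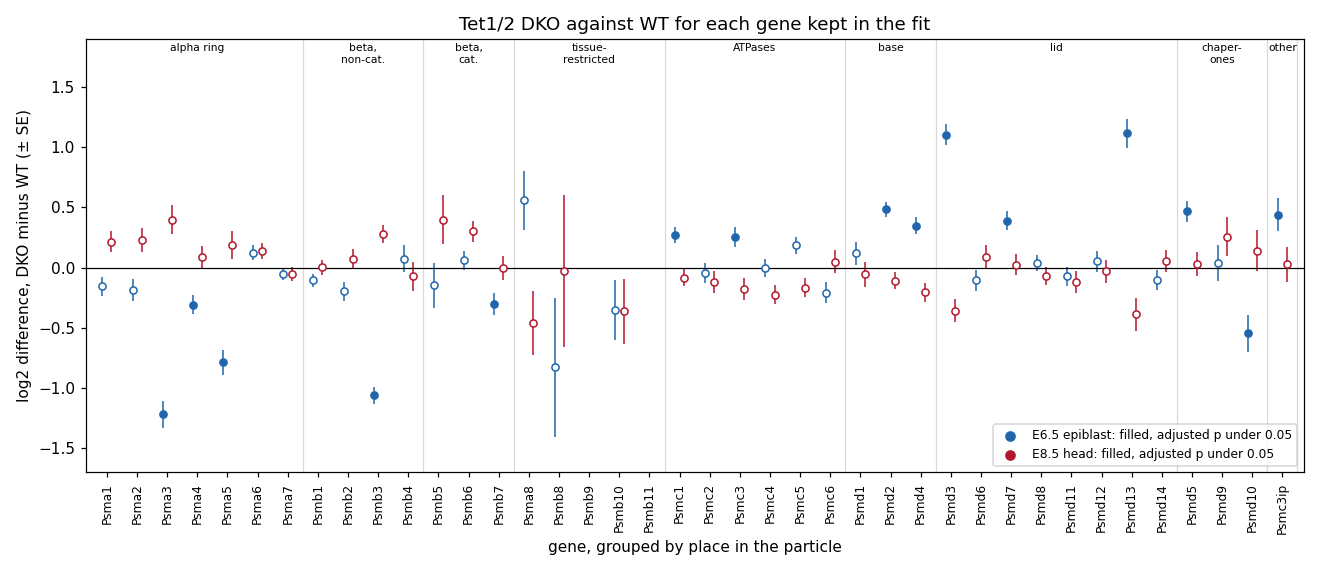
Log2 difference of DKO minus WT with its SE (y axis) for each of the 38 members kept in the fit (x axis), in the E6.5 epiblast (blue, 2 DKO and 3 WT libraries) and the E8.5 head (red, 2 and 2); filled points passed an adjusted p of 0.05. The epiblast points run from -1.22 at Psma3 to 1.12 at Psmd13, and no head point is filled.

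Promoters are shown for the 4 genes with the largest called epiblast differences that have an entry in RefSeq's promoter table, to show whether the genes that rose and fell share the letters of known proteasome promoter motifs. The entries are 300 bases long, 250 before and 50 after the annotated start, on the plus strand of build GRCm38.p6. Psmd13 lies at chr7:140882144-140882443, Psma3 at chr12:70974373-70974672, Psmb3 at chr11:97703184-97703483 and Psma5 at chr3:108256676-108256975. Capitals mark matches on either strand to the antioxidant response element core (TGACNNNGC or TGAGNNNGC), to CCAAT and to the ETS motif CCGGAAG.
Psmd13: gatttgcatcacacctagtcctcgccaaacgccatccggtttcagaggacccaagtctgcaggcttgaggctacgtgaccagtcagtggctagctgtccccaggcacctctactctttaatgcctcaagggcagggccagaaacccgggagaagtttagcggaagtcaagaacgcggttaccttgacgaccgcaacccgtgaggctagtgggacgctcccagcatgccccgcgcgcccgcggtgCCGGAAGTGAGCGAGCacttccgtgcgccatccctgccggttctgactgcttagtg
Psma3: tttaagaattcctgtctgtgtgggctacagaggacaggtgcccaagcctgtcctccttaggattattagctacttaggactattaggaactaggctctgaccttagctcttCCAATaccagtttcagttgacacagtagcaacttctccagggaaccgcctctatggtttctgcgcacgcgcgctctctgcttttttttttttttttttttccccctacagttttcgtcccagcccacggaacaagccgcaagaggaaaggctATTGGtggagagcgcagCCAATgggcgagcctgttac
Psmb3: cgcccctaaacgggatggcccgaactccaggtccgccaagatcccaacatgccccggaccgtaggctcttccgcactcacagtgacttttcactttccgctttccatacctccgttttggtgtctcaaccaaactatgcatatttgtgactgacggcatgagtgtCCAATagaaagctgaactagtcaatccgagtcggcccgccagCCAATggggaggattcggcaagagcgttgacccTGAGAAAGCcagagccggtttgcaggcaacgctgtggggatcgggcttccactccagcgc
Psma5: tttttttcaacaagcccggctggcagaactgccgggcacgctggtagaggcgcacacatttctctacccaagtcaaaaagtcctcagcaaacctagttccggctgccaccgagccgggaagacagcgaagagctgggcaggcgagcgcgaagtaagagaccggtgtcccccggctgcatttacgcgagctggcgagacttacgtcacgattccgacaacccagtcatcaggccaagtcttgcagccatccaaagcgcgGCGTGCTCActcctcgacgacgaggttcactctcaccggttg
Psmd13, which rose, held 1 ETS match followed directly by 1 antioxidant response element match. Among the genes that fell, Psma3 held 3 CCAAT matches, Psmb3 held 2 CCAAT matches and 1 antioxidant response element match, and Psma5 held 1 antioxidant response element match. Of the 33 members with an entry, 15 (45.5%) held the antioxidant response element core, against 32.0% of the 17491 coding genes in the table and 36.0% of the 8176 of them kept in the fit. CCAAT was in 14 (42.4%) against 42.3% and 43.9%, and CCGGAAG in 11 (33.3%) against 12.9% and 21.5%. Matches to the antioxidant response element core and to CCAAT occurred in genes that rose and in genes that fell. CCGGAAG was in Psmc1, Psmc3ip, Psmd2, Psmd4 and Psmd13, which were called higher in DKO epiblasts. The other members with CCGGAAG, Psma6, Psmc2, Psmc6, Psmd6, Psmd11 and Psmd12, were not called there. Their log2 differences ranged from -0.21 for Psmc6 to 0.12 for Psma6. It was absent from Psmd5, called higher, and from Psma3, Psma4, Psma5, Psmb3 and Psmd10, called lower. The remaining called genes had no entry, and the part of the motif in the differences was not tested. A match describes the letters of this window only.

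**Figure D4:**
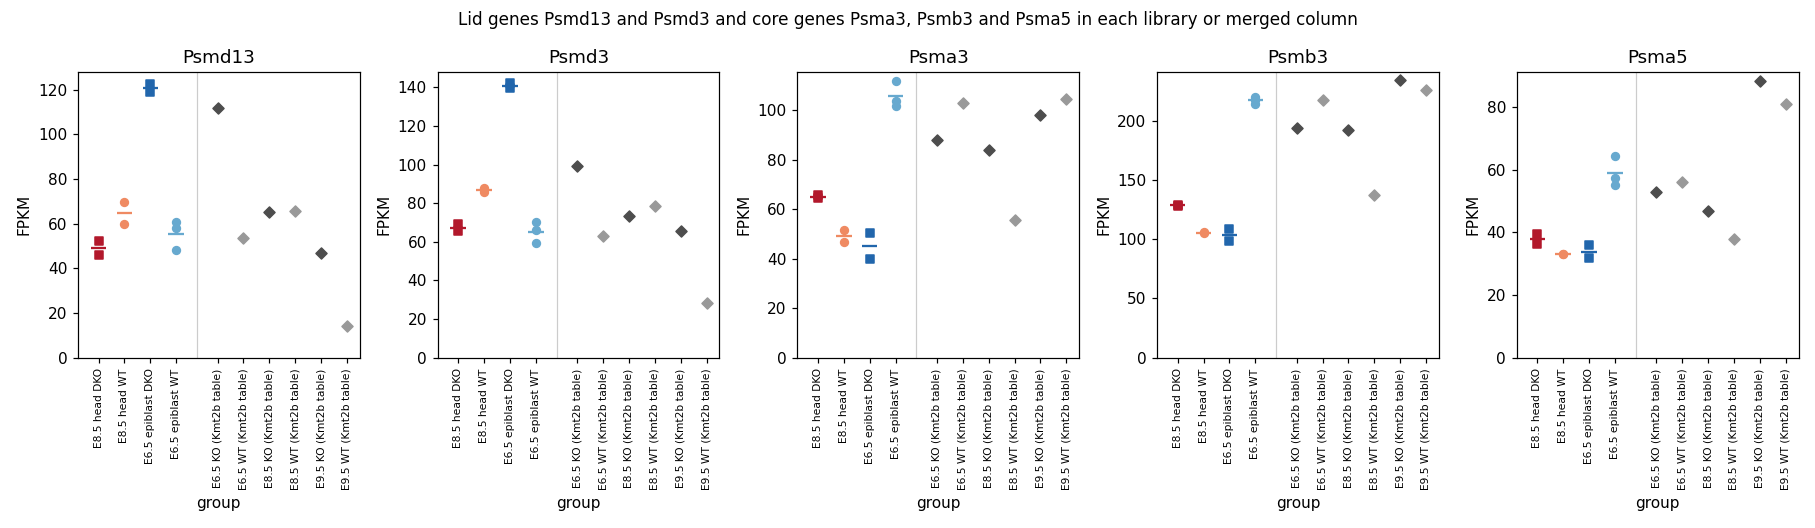
FPKM (y axis, linear from 0) of the lid genes Psmd13 and Psmd3 and the core genes Psma3, Psmb3 and Psma5 by group (x axis); points left of the line are libraries of the Tet1/2 table with bars at the group means, and diamonds to the right are the columns of the Kmt2b table. DKO epiblasts sit at 119 to 123 FPKM for Psmd13 and 39.9 to 50.4 FPKM for Psma3, against 48.0 to 60.5 FPKM and 102 to 112 FPKM in WT epiblasts.

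In the E8.5 head, 0 of 38 members were called in DKO against WT by limma, with 9 at an unadjusted p under 0.05, and 1.42% of all genes were called, 0.675% higher and 0.746% lower (1816 of 11262 at an unadjusted p under 0.05). The member median was 0.00 and the range -0.46 to 0.40. Psmd3 had 69.1 and 65.7 FPKM in DKO heads and 85.5 and 87.6 FPKM in WT heads, and its log2 difference of -0.36 ± 0.10 (SE), adjusted p = 0.124 had the smallest adjusted p of the members. Psmd13 had 46.0 and 52.4 FPKM in DKO heads and 59.9 and 69.7 FPKM in WT heads (-0.39 ± 0.13 (SE), adjusted p = 0.207). Among core genes, Psmb3 had 129 and 128 FPKM in DKO heads and 106 and 105 FPKM in WT heads (0.28 ± 0.08 (SE), adjusted p = 0.128), and Psma3 had 64.5 and 65.7 FPKM in DKO heads and 46.6 and 51.8 FPKM in WT heads (0.40 ± 0.12 (SE), adjusted p = 0.166). None of these genes was called, and for each the sign was opposite to that in the epiblast. Of the 14 constitutive core genes 11 were above 0, and of the 17 regulatory genes 13 were below 0, while of all genes 5350 were above and 5887 below 0. The 7 heart muscle markers summed to 7.90 and 5.02 FPKM in DKO heads and 28.8 and 187 FPKM in WT heads, and the 5 primitive blood markers to 377 and 4.54 FPKM in DKO heads and 0.653 and 0.136 FPKM in WT heads. Their part in these differences was not tested. The count of calls was 0 without any 1 of the 4 head libraries.

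The head and epiblast effects of DKO differed for 13 of 38 members when that difference was itself tested (interaction, head effect minus epiblast effect), against 26.4% of all genes, 10.9% positive and 15.5% negative. It was negative for 8 members, all of the base, the lid or the chaperone Psmd5, and positive for 5, all of the constitutive core. The most negative were Psmd13 (-1.504 ± 0.18 (SE), adjusted p = 0.00173) and Psmd3 (-1.46 ± 0.13 (SE), adjusted p = 0.000808). The most positive were Psma3 (1.62 ± 0.17 (SE), adjusted p = 0.00119), Psmb3 (1.34 ± 0.10 (SE), adjusted p = 0.000636) and Psma5 (0.97 ± 0.15 (SE), adjusted p = 0.00429). With Psmd2 (-0.59) and Psmd4 (-0.55) these 7 calls held under all 16 alternative settings, and the other 6 were all lost without WT head library 1, without DKO head library 1 and without DKO head library 2, with an adjusted p of up to 0.149 (Psmc5) when 1 library was left out. The interaction and the epiblast comparison share the epiblast libraries.

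Psmd13 over Psma3, a pair chosen after the values were seen, was 0.714 and 0.797 in DKO heads and 1.29 and 1.35 in WT heads, against 3.07 and 2.36 in DKO epiblasts and 0.463, 0.518 and 0.596 in WT epiblasts. The DKO epiblasts had the highest ratios and the WT epiblasts the lowest.

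From epiblast to head in WT, 16 of 38 members were called, 7 higher and 9 lower in the head, against 36.9% of all genes, 19.9% higher and 17.1% lower. In the constitutive core 7 of 14 fell and 0 rose, and in the regulatory particle 5 of 17 rose and 0 fell. Psma3 averaged 49.2 ± 3.69 FPKM in WT heads and 106 ± 5.47 FPKM in WT epiblasts (SD, n = 2 and 3), a log2 difference of -1.09 ± 0.11 (SE), adjusted p = 0.000221. Psmb3 averaged 106 ± 0.216 FPKM in WT heads and 217 ± 2.75 FPKM in WT epiblasts (-1.03 ± 0.07 (SE), adjusted p = 2.91e-05). Psma5 fell by 0.81, Psmb7 by 0.35, Psma2 by 0.30 and Psma1 by 0.25 on the log2 scale. Psmb5, the chymotrypsin-like catalytic subunit gene, had 179 and 295 FPKM in WT heads and 408, 431 and 417 FPKM in WT epiblasts (-0.86 ± 0.19 (SE), adjusted p = 0.00777), with WT head library 1 well below the other. The regulatory genes that rose were Psmd3 (0.41), Psmc3 (0.38), Psmc1 (0.34), Psmd4 (0.28) and Psmd2 (0.25), together with the chaperone Psmd5 (0.52). Psmc3ip had 68.0 and 63.6 FPKM in WT heads and 46.8, 36.4 and 39.8 FPKM in WT epiblasts (0.68 ± 0.13 (SE), adjusted p = 0.00519). Without WT head library 1 the count was 10, with the calls of Psma1, Psma2, Psmb7, Psmb8, Psmd2 and Psmd4 lost. Psmb7, Psmb8 and Psmd2 were also lost without WT head library 2, Psma1 and Psma2 without WT epiblast library 1 or 3, and Psma2 without WT epiblast library 2.

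In DKO, 12 of 38 members were called between head and epiblast, 4 higher and 8 lower in the head, against 49.8% of all genes, 23.7% higher and 26.1% lower. Here 6 of the 17 regulatory genes fell and 1 rose, and 2 of the 14 core genes rose and 0 fell. Psmd13 averaged 49.2 ± 4.48 FPKM in DKO heads and 121 ± 2.43 FPKM in DKO epiblasts (SD, n = 2 and 2), a log2 difference of -1.28 ± 0.13 (SE), adjusted p = 0.000187. Psmd3 averaged 67.4 ± 2.43 FPKM in DKO heads and 141 ± 2.04 FPKM in DKO epiblasts (-1.05 ± 0.10 (SE), adjusted p = 9.9e-05). Psmd2 fell by 0.34, Psmd4 by 0.28, Psmd7 by 0.27 and Psmd11, a lid scaffold gene, by 0.26 on the log2 scale. Psma3 rose by 0.53, Psmb3 by 0.31, the ATPase Psmc6 by 0.33 and Psmd10 by 0.70. The count was 6 without DKO head library 1 and 7 without DKO head library 2. Psmd13, Psmd3, Psmd2, Psma3, Psma8 and Psmb10 were called under every setting that kept them.

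For Kmt2b the table has 1 column per group, so the differences are sizes with no error and no test. In the E6.5 epiblast, which addresses what Kmt2b loss does to pluripotent cells, most members were slightly lower in KO: 30 of 37 members kept were below 0, against 52.1% of 11071 genes, and their median log2 difference was -0.19 against -0.02 for all genes. The difference exceeded the SD of the 3 WT epiblast libraries of the Tet1/2 table in 26 members below 0 and 3 above 0, and over all 11071 genes in 3328 below 0 and 2955 above 0 (56.8% in all). The median SD of the members in those libraries was below that of all genes, as given above, and the spread of the KO is unknown. The largest negative values were those of Psmd10 (31.1 FPKM in KO and 44.0 FPKM in WT, log2 difference -0.49), Psma2 (619.6 FPKM in KO and 829 FPKM in WT, -0.42) and Psmb5 (316 FPKM in KO and 415 FPKM in WT, -0.39). Against this background Psmd13 had 112 FPKM in KO and 53.4 FPKM in WT, a log2 difference of 1.05, and was the 1 member past 2-fold (1.69% of all genes). Psmd3, the other member past 1.5-fold (9.24% of all genes), followed with 99.2 FPKM in KO and 62.9 FPKM in WT (0.65), and Psmb1, a non-catalytic beta gene, with 536 FPKM in KO and 476 FPKM in WT (0.17). The Psmd13 value was under 2-fold when the WT libraries of the Tet1/2 table stood in for the WT column, and with a pseudocount of 5 FPKM. The Kmt2b KO and Tet1/2 DKO epiblasts were set against the same WT libraries, and DKO values of these 2 genes are given above. Psma3 differed by -0.22, Psmb3 by -0.16 and Psma5 by -0.08 in KO.

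In the E8.5 head 0 of 37 members passed 2-fold, against 4.72% of all genes, and 25 were below 0, against 50.5%. The member median was -0.09 and that of all genes -0.01. The difference exceeded the SD of the WT head libraries of the Tet1/2 table in 28 of 37 members, 21 below 0 and 7 above 0. Over all genes this share was 74.2%. In the regulatory particle 15 of its 17 genes were below 0, and in the core 7 of 14. Psmd7 had 139.5 FPKM in KO and 209.5 FPKM in WT (-0.58), Psmc3ip 42.7 FPKM in KO and 61.5 FPKM in WT (-0.52) and Psmc1 167 FPKM in KO and 234 FPKM in WT (-0.48). The core genes Psma3, with 83.9 FPKM in KO and 55.5 FPKM in WT (0.59), Psmb3, with 192 FPKM in KO and 137 FPKM in WT (0.48), and Psmb5, with 332 FPKM in KO and 256 FPKM in WT (0.37), were highest. Psmd13 was level at 65.1 FPKM in KO and 65.6 FPKM in WT, and Psmd3 had 73.6 FPKM in KO and 78.6 FPKM in WT (-0.09). The 5 primitive blood markers summed to 5.03 FPKM in KO and 98.1 FPKM in WT, the 8 head neural and anterior markers to 149.8 FPKM in KO and 207 FPKM in WT, and the 7 heart muscle markers to 108 FPKM in KO and 84.1 FPKM in WT. Their part in the differences was not tested. At 1.5-fold Psma3 was the 1 member counted, against 16.2% of all genes.

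At E9.5 the single KO library stood against the merged WT column, and the KO does not stand clearly for a head: its column carries "Em" where the title says head, and heart muscle markers summed to 2413 FPKM in KO and 20.9 FPKM in WT. The 5 primitive blood markers summed to 5862 FPKM in KO and 15766 FPKM in WT, and the part of either list in the differences was not tested. Of 37 members, 2 were past 2-fold, against 8.26% of all genes. Psmd13 had 46.7 FPKM in KO and 14.4 FPKM in WT (1.64) and Psmd3 65.6 FPKM in KO and 28.4 FPKM in WT (1.18). Psmd9 had 21.1 FPKM in KO and 14.003 FPKM in WT (0.56). On the negative side lay the alpha ring genes Psma4 (346 FPKM in KO and 454 FPKM in WT, -0.39), Psma1 (568 FPKM in KO and 693 FPKM in WT, -0.29) and Psma6 (626 FPKM in KO and 738 FPKM in WT, -0.24). Of the 17 regulatory genes 16 were above 0, against 52.6% of all genes, and of the 14 core genes 7. When the columns were quantile normalized together, 19 of the 37 members were below 0 in place of 10, and the count past 2-fold was 2 under both scalings.

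**Figure D5:**
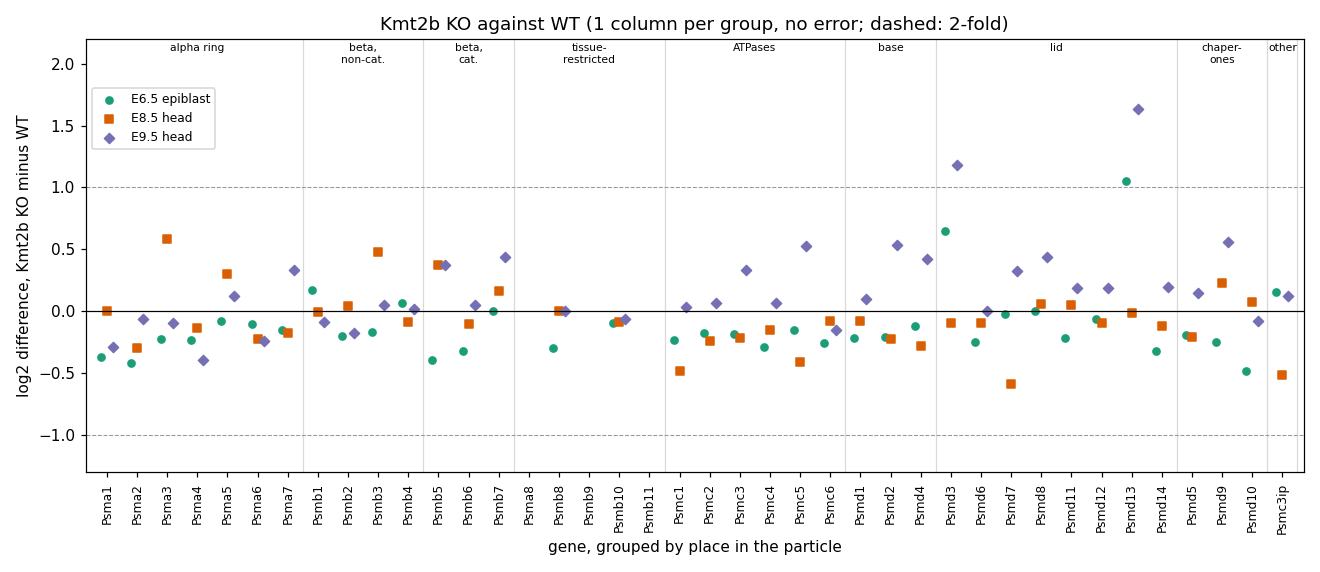
Log2 difference of Kmt2b KO minus WT (y axis) for the 37 members kept (x axis), from 1 column per group without error, in the E6.5 epiblast (circles), E8.5 head (squares) and E9.5 head (diamonds); dashed lines mark 2-fold. Psmd13 reaches 1.05 at E6.5 and 1.64 at E9.5 but lies at -0.01 at E8.5.

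The WT columns of the Kmt2b table give the same genes over 3 stages, with the E9.5 column normalized apart from the others. Psmd13 had 53.4 FPKM at E6.5, 65.6 FPKM at E8.5 and 14.4 FPKM at E9.5, and Psmd3 had 62.9, 78.6 and 28.4 FPKM. Psma5 had 56.1 FPKM at E6.5, 37.8 FPKM at E8.5 and 81.0 FPKM at E9.5, Psma3 103, 55.5 and 105 FPKM, and Psmb3 217, 137 and 226 FPKM. The lid pair was thus lowest at E9.5 and the 3 core genes lowest at E8.5. Between E9.5 and E8.5, 3 of 37 members passed 2-fold, against 19.1% of all genes: Psmd13 (-2.12), Psmd3 (-1.44) and Psma5 (1.08). The primitive blood markers summed to 15766 FPKM at E9.5 and 98.1 FPKM at E8.5, and their part in these differences was not tested. Psmd2 differed by -0.88, Psma3 by 0.90 and Psmb3 by 0.71. Within the E9.5 WT column the highest regulatory gene was 29.9 times Psmd13, the lowest. Between E8.5 and E6.5 the members past 2-fold were Psmb8, listed at 0 at E8.5 and at 3.53 FPKM at E6.5, and Psmb10 (-1.34), against 14.2% of all genes. Psma3 (-0.88) and Psmb5 (-0.69) were also lower and Psmc3ip (0.65), Psmd5 (0.51) and Psmc3 (0.40) higher at E8.5.

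Psma8, left out of the Kmt2b comparisons by the minimum of 1 FPKM in at least 2 columns, had 0.182 FPKM in KO and 1.41 FPKM in WT at E6.5, 0.0435 FPKM in KO and 0.612 FPKM in WT at E8.5, and 0 FPKM in KO and 0.0663 FPKM in WT at E9.5. Psmb10 had 23.6 FPKM in KO and 25.3 FPKM in WT at E6.5 and Psmb8 2.69 FPKM in KO and 3.53 FPKM in WT. Psmb8 was listed at 0 in all 4 columns of E8.5 and E9.5.

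Genes that work with the proteasome were called both ways. Of 43 such genes listed, 39 were kept in the Tet1/2 fit. In DKO against WT epiblasts 13 rose and 5 fell, against 20.1% of all genes higher and 15.2% lower. Among shuttle factors and segregase genes, which bring ubiquitinated proteins to the particle, 6 of 10 rose and 0 fell: Ubqln4 had 54.4 and 51.8 FPKM in DKO epiblasts and 22.2, 25.4 and 20.2 FPKM in WT epiblasts (1.20 ± 0.11 (SE), adjusted p = 0.000356), Rad23b differed by 0.98 and Ubqln2 by 0.90. Of the core assembly chaperones Psmg1 rose (0.78 ± 0.09 (SE), adjusted p = 0.000766) and its partner Psmg2 fell (-0.63 ± 0.08 (SE), adjusted p = 0.00113). Psme2, a subunit of the interferon-inducible activator, had 9.12 and 11.9 FPKM in DKO epiblasts and 39.8, 40.5 and 30.0 FPKM in WT epiblasts (-1.71 ± 0.21 (SE), adjusted p = 0.000950). Rps27a, a ubiquitin fusion gene, had 42.8 and 56.5 FPKM in DKO epiblasts and 181, 225 and 215 FPKM in WT epiblasts (-2.05 ± 0.14 (SE), adjusted p = 0.000117). The ubiquitin-activating enzyme Uba1, which is X-linked, rose by 0.65 in DKO epiblasts. In DKO heads Uba1 was the 1 partner of 39 called by limma, against 1.42% of all genes. It had 86.9 and 90.9 FPKM against 121 and 121 FPKM in WT heads (-0.44 ± 0.08 (SE), adjusted p = 0.0442). Sex and genotype cannot be told apart in these heads.

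Of the 7 regulators of proteasome genes kept, 3 rose in DKO epiblasts and 0 fell, beside the same shares of all genes. Keap1, which targets Nfe2l2 for degradation, rose by 1.25, Ddi2, the protease that activates Nfe2l1, by 0.76, and Nfe2l2 by 0.49 on the log2 scale. Nfe2l1 itself had 7.10 and 2.199 FPKM in DKO epiblasts and 3.77, 5.35 and 5.28 FPKM in WT epiblasts and was called in none of the 5 contrasts. Its DKO libraries lay on either side of the WT range. Pomp, which matures the core, had 409 and 396 FPKM in DKO epiblasts and 403, 406 and 374 FPKM in WT epiblasts and was not called there, and between WT heads and WT epiblasts it rose by 0.20. In the Kmt2b table the partners past 2-fold in KO included Rad23b at E6.5 (49.7 FPKM in KO, 19.99 FPKM in WT), Rps27a at E8.5 (199.6 FPKM in KO, 88.1 FPKM in WT), and Ddi2 (3.38 FPKM in KO, 1.11 FPKM in WT) at E9.5.

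Some values may hold reads of other loci. RefSeq names pseudogenes of Psma5, Psmb5, Psmb6 and Psmb7, and genes overlap Psma3 (3110056K07Rik), Psma4 (AY074887), Psmc3ip (Mlx), Psmd10 (Atg4a) and Psmd13 (the pseudogene Gm15542), among others. Smart-seq2 libraries do not mark strand, so reads from overlapping genes cannot be told apart. Psmd3 and Psmb3 have neither in that annotation. Across the members, Spearman's rho between genomic span and the log2 difference was 0.05 for DKO heads and -0.01 for DKO epiblasts (n = 38 genes), and between promoter GC content and the difference -0.21 and 0.06 (n = 31 of 38 genes with a promoter entry). Genes are not independent replicates, and these values are descriptions.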

How the data were processed

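RNA was measured with Smart-seq2, which does not mark strand, per the labels' protocols. The authors deposited FPKM per gene, and per the submitters' processing notes TopHat2 2.0.11, Cufflinks 2.0.2 and the mm9 genome were used. The sorted values of the Tet1/2 columns, and of the E6.5 and E8.5 Kmt2b columns, are nearly identical, as quantile normalization leaves them; those of the E9.5 columns are not. FPKM give no counts, so the depth and any counting interval are unknown. From the Kmt2b file, 27 rows named by dates were left out, as were 8 small RNA rows in each table, and 2 columns of no listed sample were not used. Methylation files were not used.

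The 11262 genes that reached 1 FPKM in 2 or more libraries were tested on log2(FPKM + 1) with limma 3.58.1 in R 4.3.3: 1 fit of 9 libraries in 4 groups, empirical Bayes with a mean trend, two-sided, Benjamini-Hochberg adjusted p under 0.05. Fold changes on this scale understate those of low genes. The Kmt2b table, with 1 column per group, had no test: differences of 11071 genes were called at 2-fold and 1.5-fold on the same scale. Tables were made with Python 3.11.15, pandas 2.3.3 and numpy 2.4.6, and the fit was checked on simulated data. For DKO against WT heads it recovered 7 of 50 genes changed by 0.5 on the log2 scale. Of those changed by 1 it recovered 35 of 50, and there were 5 false calls in all. In this simulation small head differences were thus mostly missed. It used each gene's SD pooled over the 4 groups, and the changed genes were drawn from all but the low ones. The members had smaller SDs in the heads, as given above, so their recovery may differ.

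Libraries were given for the called members with the largest differences (up to 12), the highest and lowest of each subcomplex, the 3 largest Kmt2b differences in each direction among members reaching 5 FPKM in either group, the tissue-restricted genes and Psmc3ip, and up to 4 partners per list. Members, lists and tests were chosen with earlier results of these data known. Alternatives were other pseudocounts and filters, no mean trend, other scalings, a replicate block, other sets of samples and each library left out. Promoters came from RefSeq's table for GRCm38.p6, whose coordinates were not joined to the mm9 data. The deviations of same-numbered libraries had correlations of -0.01 to 0.19, highest between DKO heads and DKO epiblasts. In DKO heads, WT heads and DKO epiblasts the deviations of the libraries mirror each other. These correlations therefore cannot decide whether the numbers pair the samples.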

Additional observations from a re-analysis of the deposited data

Results flagged for a closer look

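The log2 difference of DKO minus WT was not the same in the E8.5 head and the E6.5 epiblast for 13 of 38 members. This was by the test of the difference itself (head difference minus epiblast difference, limma, adjusted p under 0.05), which called 26.4% of all genes. The lid genes Psmd13 and Psmd3 had -1.504 and -1.46, the base genes Psmd2 and Psmd4 -0.59 and -0.55, and the chaperone gene Psmd5 -0.44. The ATPase genes Psmc3, Psmc1 and Psmc5 had -0.43, -0.36 and -0.35. The core genes were positive, with 0.37 for Psma1, 0.40 for Psma4, 0.97 for Psma5, 1.34 for Psmb3 and 1.62 for Psma3. The calls of Psma1, Psma4, Psmc1, Psmc3, Psmc5 and Psmd5 were lost when some single library was left out. For Psmd13 the difference was -0.39 ± 0.13 in the head and 1.12 ± 0.12 in the epiblast (SE), and for Psma3 0.40 ± 0.12 and -1.22 ± 0.11. The same WT epiblast libraries, which come from the Kmt2b set, enter each of these values, so genotype and sample set cannot be told apart there.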

How the results depend on the processing

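The counts of members called by limma kept within 1.5 times under most alternatives. Leaving out each library in turn gave 0 to 0 members in DKO against WT heads, 11 to 14 in epiblasts, 10 to 17 from epiblast to head in WT, 6 to 13 in DKO and 7 to 14 for the difference of the DKO effects. The share of all genes called changed with the library left out as well. That last count was 8 with no filter on low values, 7 with no mean trend and 8 with the replicate block. Of all genes 8.47%, 24.7% and 20.9% were called under these settings, against 26.4% in the main fit. With this block the other counts were 0, 10, 11 and 11, beside 0.471%, 28.0%, 30.6% and 48.1% of all genes. Whether the numbers pair the libraries is not known. In the Kmt2b table at E6.5 the count past 2-fold was 0 with a pseudocount of 5 FPKM, 2 with no filter and 0 against the WT libraries of the Tet1/2 table. At E8.5 the count past 1.5-fold was 2 with a pseudocount of 0.1 FPKM, 0 with 5 FPKM, 2 with no filter, 2 after quantile normalization of the columns and 4 against the Tet1/2 table's WT libraries. At E9.5 quantile normalization gave 19 members below 0 and a median of -0.0074. The median of E9.5 against E8.5 WT was -0.15 after quantile normalization and -0.0301 after centring on the median. Between E8.5 and E6.5 WT, 1 member passed 2-fold with a pseudocount of 5 FPKM. The causes of these shifts were not tested. For single genes 734 values stayed on their side of the threshold, 151 lost it, 30 moved and 0 reversed. A fit of only the groups compared was not run for the difference of DKO effects. With 2 or 3 libraries per group and unknown depth, a missed threshold does not show that levels were equal.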
